A study of Mus musculus with 6 samples.

Results

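The genes described here encode 10 enzymes of muscle glycolysis and its redox side reactions: *Pfkm*, *Aldoa*, *Gapdh*, *Pgk1*, *Pgam2*, *Eno3*, *Pkm*, *Ldha*, *Ldhb* and *Gpd1*. They were taken from the normalized table by their symbols and joined to the raw counts by Ensembl gene ID, and all 10 were found among the 51912 genes of the count table. RNA-seq was performed on whole soleus muscle of 8-week-old C57BL6/N mice, 3 carrying 1 Mustn1_KO-first allele (HET) and 3 wild-type (WT), with 1 library per mouse. The KO-first allele traps the *Mustn1* transcript by splicing it into a lacZ and neomycin cassette, is present in the whole body and leaves 1 normal allele in HET mice. Nothing in the labels says which mice shared a litter, so p-values measure the spread between these 6 mice.

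Glycolysis splits glucose into pyruvate in the cytosol and yields ATP without oxygen, which makes it the quick fuel supply of contracting fibers. Fast fibers, above all those that use the myosin of *Myh4*, hold more glycolytic enzyme than slow fibers, and the mouse soleus is built mainly of slow fibers and of the oxidative fast fibers that use *Myh2*. Several steps have a muscle isoform (*Pfkm*, *Pgam2*, *Eno3*) and counterparts that other cells use (*Pfkl*, *Pfkp*, *Pgam1*, *Eno1*).

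Libraries held between 26790075 and 50368796 reads on genes. *Mustn1*, the targeted gene, was read at 12.6, 16.8 and 13.1 CPM (the reads of a gene scaled to library size, TMM-adjusted) in the HET mice and at 23.1, 29.0 and 30.5 CPM in the WT mice, a log2 fold change of -0.96 ± 0.15 (SE). The labels call all mice male, yet every library held between 3858 and 9154 reads of *Xist*, the RNA of the inactive X chromosome, and at most 12 reads on 4 Y-linked genes together, so the labelled sex does not match the reads in any of the 6 libraries. Soleus markers were present: *Myh7*, the slow myosin, lay between 13642 and 14766 CPM and *Myh2* between 12653 and 16003 CPM in all mice.

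The question for the enzymes was whether the loss of 1 *Mustn1* allele went with a different level of glycolytic transcripts. No difference passed the test. Of the 14696 genes tested with edgeR's quasi-likelihood test, 0.15% had an adjusted p below 0.05 (21 higher in HET and 1 lower, which is 0.0068%), and of the 10 enzymes 0 did, with adjusted p between 0.56 and 0.98. At an unadjusted p under 0.05 the enzymes gave 1 of 10, *Pgk1*, beside 1140 of the 14696 genes tested. At the adjusted threshold DESeq2, limma-voom and limma on log2 values also called 0 of the 10. All 10 fitted values lay below 0 (9 of 10 on total counts alone, without scaling factors), with a median log2 fold change of -0.14 against -0.02 over all genes tested. That direction was found for 54.4% of all genes tested. It was more common among abundant transcripts, where 75.1% of the 1334 genes with a mean of at least 100 CPM had a value below 0. *Gapdh* and *Pgk1* lay under that level. The median of those 1334 genes was -0.063. On total counts the median of the enzymes was -0.06 and *Pkm* turned to +0.04, while the median over all genes moved to +0.06.

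**Figure D1:**
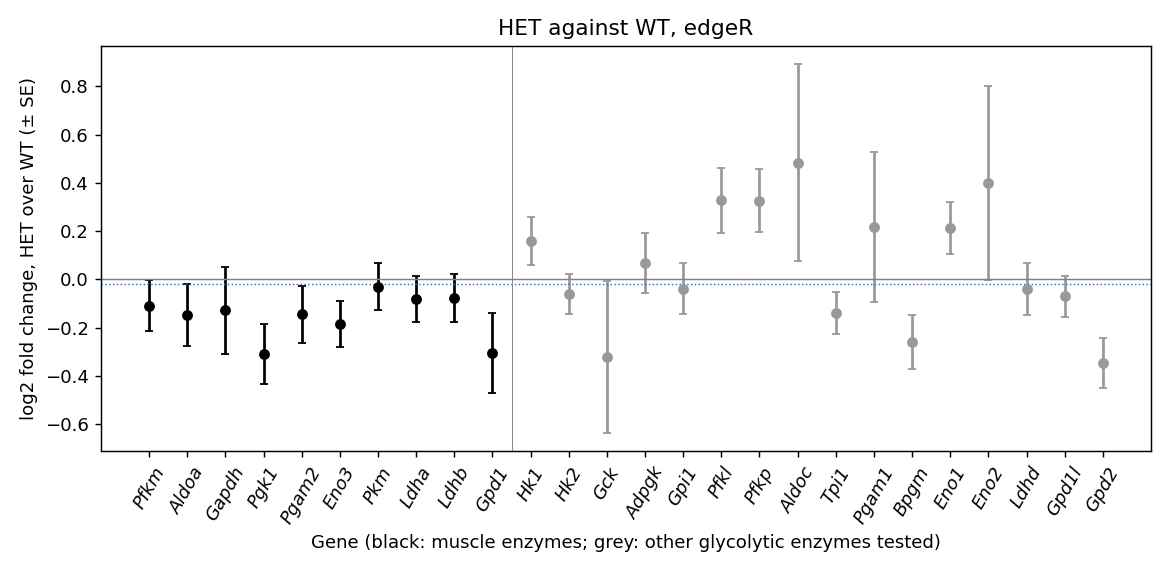
Log2 fold change of HET over WT with its standard error (edgeR) for the 10 muscle enzymes (black) and the other glycolytic enzymes tested (grey), with the dotted line at the median of all genes tested. The 10 black points lie below 0, between -0.31 and -0.03 (on total counts alone *Pkm* lies above 0), and none passed the adjusted threshold.

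The levels of the 10 enzymes differed widely per length, and the lowest 2 belong to genes that share most of their sequence with copies elsewhere. On the scale of CPM per kilobase of exon, *Eno3* was highest, with 1080 ± 116 in HET and 1230 ± 13.0 in WT (SD, n = 3 each), followed by *Aldoa* with 1027 ± 200.4 and 1138 ± 74.3. *Pgam2* came next with 755 ± 133 and 835 ± 30.3, then *Pfkm* with 658 ± 69.3 and 710 ± 63.0. The ranges of each neighbouring pair among these 4 overlapped over the mice, although *Aldoa* was above *Pgam2* and *Pgam2* above *Pfkm* in each of the 6 mice, and *Eno3* was above *Aldoa* in 5 of 6. Below them the ranges no longer met: *Ldhb* (344 to 428), *Ldha* (196 to 244), *Pkm* (147 to 176), *Gpd1* (30.5 to 48.8), *Pgk1* (6.72 to 9.98) and *Gapdh* (0.81 to 1.18 CPM per kilobase). Reads that align to several places were left out of the counts, so these levels reflect only the parts of each transcript that are unlike other genes. The length used is that of all annotated exons of a gene together. It is 3762 bases for *Aldoa*, whose coding transcript has 1549, and 1739 for *Eno3*, whose coding transcript has 1454. In CPM without length, *Aldoa* was above *Eno3*, with a WT mean of 4281 against 2138. The order and the gaps between genes thus depend on how length is counted.

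*Gapdh*, which oxidises glyceraldehyde 3-phosphate, is among the most copied genes of the mouse genome. Of its 50-base transcript windows, 90.4% also occur in a transcript of another annotated gene, among them 213 pseudogenes. In *Pgk1*, whose enzyme makes the first ATP of the pathway, 68.0% of windows recur, in 5 pseudogenes. No window of *Pfkm*, *Pgam2* or *Eno3* recurs. For the others the share was 39.3% in *Pkm*, 27.0% in *Ldhb*, 16.6% in *Ldha*, 13.5% in *Aldoa* and 10.3% in *Gpd1*, and exons of another gene, Gm49759, cover 15.3% of the exon bases of *Pkm* on the same strand. The window of *Gapdh* coding sequence found in the largest number of other genes is shown (84 other genes, exon 4 of 7, chr6:125162898-125162947, minus strand of GRCm38, 5′ to 3′), because these copies bear on what a count of the gene means.
Gapdh: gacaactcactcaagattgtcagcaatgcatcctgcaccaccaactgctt

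In all, *Gapdh* received 879 reads over the 6 mice and *Pgk1* 3933, against 872018 for *Aldoa*. Among coding windows that lie within 1 exon, 11 of 742 in *Gapdh* had no copy in another gene. The pseudogenes that share windows with *Gapdh* held 20521 reads in all, and no single one of them more than 723. With the 209 of these pseudogenes that the count table holds added, the *Gapdh* total was 85.9, 99.2 and 101 CPM in the HET mice and 102, 90.7 and 111 CPM in the WT mice (exact permutation test, two-sided, p = 0.4, where 0.1 is the smallest p that 3 against 3 mice allow). The pseudogenes that share windows with *Pgk1* held only 1 read in all, with reads that align to several places left out. The level of *Gapdh* relative to the other enzymes is uncertain in this count table, and so is that of *Pgk1*. The part of the copies in the rank of either gene was not tested.

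**Figure D2:**
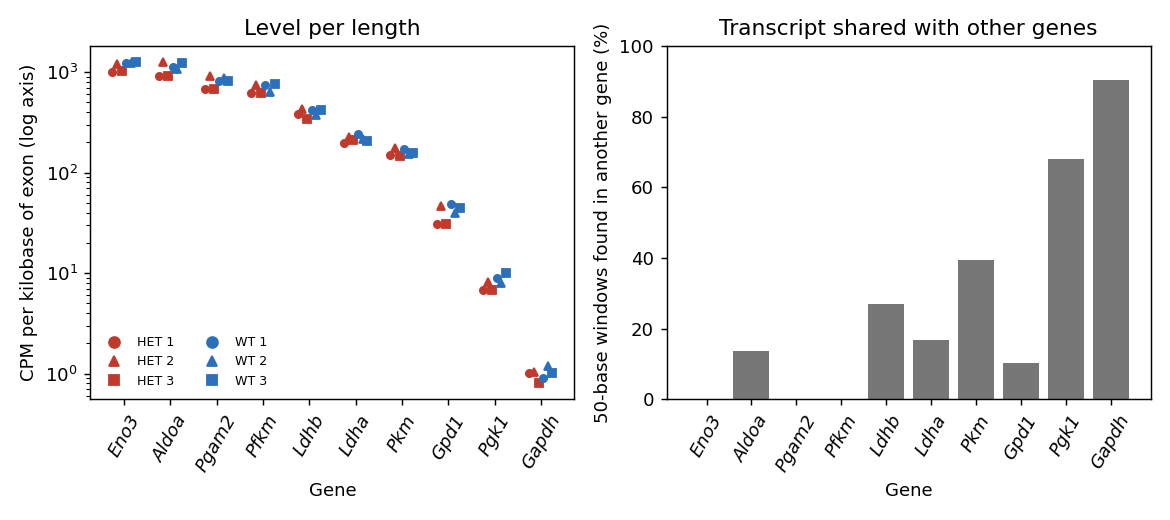
Left, CPM per kilobase of exon in each mouse (log axis) for the 10 enzymes in order of their WT mean; right, the share of each transcript's 50-base windows that also occur in another annotated gene. *Pgk1* and *Gapdh*, the lowest 2 genes on the left, have the largest shares on the right, 68.0% and 90.4%.

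Phosphofructokinase catalyses the committed step of the pathway, and its muscle form is encoded by *Pfkm* (chr15:98092589-98132447, plus strand of GRCm38). Its level was 1831, 2182 and 1823 CPM in the HET mice and 2183, 1886 and 2229 CPM in the WT mice, a log2 fold change of -0.11 ± 0.11 (SE). HET mice 1 and 3 were the lowest and HET mouse 2 stood among the WT mice. *Aldoa* (chr7:126795234-126809108, minus strand), the aldolase that cleaves fructose 1,6-bisphosphate, was read at 3442, 4732 and 3411 CPM in HET and at 4206, 4048 and 4591 CPM in WT. Its difference was -0.15 ± 0.13, and HET mouse 2 held the highest value of all 6. The same 2 HET mice were again the lowest.

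*Gapdh* (chr6:125161715-125166467, minus strand) was read at 4.19, 4.32 and 3.33 CPM in HET and 3.78, 4.89 and 4.23 CPM in WT, with a log2 fold change of -0.13 ± 0.18. The ranges overlapped. *Pgk1* (chrX:106187100-106203699, plus strand), phosphoglycerate kinase on the X chromosome, had the largest difference among the 10 in this fit, close to that of *Gpd1*, which was larger with limma, the GC offset or without HET mouse 2. Its values were 15.3, 18.3 and 15.1 CPM in HET against 20.0, 17.8 and 22.4 CPM in WT. The log2 fold change was -0.31 ± 0.13 with an unadjusted p of 0.031 and an adjusted p of 0.56 (edgeR), and HET mouse 2 lay above WT mouse 2, so the genotypes overlapped.

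*Pgam2* (chr11:5801640-5803733, minus strand), the muscle phosphoglycerate mutase, lay at 574, 763 and 565 CPM in HET and at 685, 731 and 689 CPM in WT, a log2 fold change of -0.15 ± 0.12. The HET mice held both the lowest 2 values and the highest one. *Eno3* (chr11:70657202-70662513, plus strand), the muscle enolase, was read at 1750, 2111 and 1775 CPM in HET and at 2131, 2120 and 2164 CPM in WT. It was the only 1 of the 10 enzymes whose genotypes did not overlap, with a log2 fold change of -0.19 ± 0.10 and an adjusted p of 0.73, and the gap between HET mouse 2 and the lowest WT mouse was small beside the spread of the HET mice (SD 202 CPM). Over all genes tested, 6.02% had every HET mouse below every WT mouse, so 1 of 10 is near the background.

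*Pgam2* and *Eno3* are shown with the 250 bases before their RefSeq transcription start, as the muscle isoforms without copies that have 1 start site there, and *Pgk1* for comparison as an enzyme of all tissues. Capitals mark E-boxes (CANNTG, the letters that MyoD-type factors bind) in *Pgam2* and *Eno3*, with a MEF2 site also in *Pgam2*, and the core ACGTG or CACGT (the letters within hypoxia response elements) in *Pgk1*. Both strands were searched. Sequences are from RefSeq in GRCm38.p6 and run 5′ to 3′ on the strand of the gene: *Pgam2* at chr11:5803797-5804046 (minus), *Eno3* at chr11:70656926-70657175 (plus) and *Pgk1* at chrX:106186850-106187099 (plus).
Pgam2: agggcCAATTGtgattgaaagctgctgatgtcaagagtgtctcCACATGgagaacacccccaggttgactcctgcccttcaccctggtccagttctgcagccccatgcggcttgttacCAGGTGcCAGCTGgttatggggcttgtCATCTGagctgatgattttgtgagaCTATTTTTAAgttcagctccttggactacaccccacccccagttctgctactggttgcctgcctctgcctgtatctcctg
Eno3: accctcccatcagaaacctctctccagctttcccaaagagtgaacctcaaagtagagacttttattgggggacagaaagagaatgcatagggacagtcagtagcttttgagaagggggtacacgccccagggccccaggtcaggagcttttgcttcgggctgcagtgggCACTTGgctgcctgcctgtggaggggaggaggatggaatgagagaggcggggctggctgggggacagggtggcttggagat
Pgk1: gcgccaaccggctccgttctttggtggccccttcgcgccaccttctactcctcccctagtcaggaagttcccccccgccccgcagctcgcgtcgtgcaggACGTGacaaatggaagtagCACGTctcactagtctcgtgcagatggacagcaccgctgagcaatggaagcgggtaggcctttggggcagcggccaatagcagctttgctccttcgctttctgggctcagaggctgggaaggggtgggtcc

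The *Pgam2* window held 5 E-boxes and 1 MEF2 site, the *Eno3* window 1 E-box and the *Pgk1* window 2 matches to ACGTG or CACGT, beside 2 E-boxes that are not in capitals. Of all 32851 windows of this length, 66.2% held an E-box, 16.6% ACGTG or CACGT and 2.92% a MEF2 site. Of the 10 enzymes 9 had an entry, with 16 start sites in all, and the MEF2 site was found in 1 of these 16. These matches describe the sequence and were not tested for binding.

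*Pkm* (chr9:59656368-59679375, plus strand), pyruvate kinase, showed the smallest difference in this fit (on total counts or with the GC offset *Ldha* and *Ldhb* were closer to 0), with 750, 882 and 737 CPM in HET against 863, 768 and 789 CPM in WT. Its log2 fold change of -0.03 ± 0.10 turned above 0 without HET mouse 1 (0.005), HET mouse 3 or WT mouse 1 (0.02 each), so its sign is not fixed by these mice. HET mouse 2 was the highest of all.

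The subunits of lactate dehydrogenase convert pyruvate to lactate and back, with *Ldha* the M subunit typical of glycolytic fibers and *Ldhb* the H subunit typical of oxidative fibers. *Ldha* (chr7:46841475-46855627, plus strand) was read at 649, 750 and 691 CPM in HET and 808, 717 and 689 CPM in WT (-0.08 ± 0.10 on the log2 scale). *Ldhb* (chr6:142490249-142507957, minus strand) stood at 598, 672 and 540 CPM in HET and at 661, 589 and 660 CPM in WT (-0.08 ± 0.10), and its difference was 0.0001 without HET mouse 3. Both ranges overlapped, and the values of the HET mice fell on either side of those of the WT mice for *Ldhb*. Per kilobase of exon, *Ldhb* was above *Ldha* in each of the 6 mice, while in CPM *Ldha* was the higher in each.

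*Gpd1* (chr15:99717515-99725005, plus strand), the cytosolic glycerol 3-phosphate dehydrogenase that returns NADH to NAD+ and feeds the glycerol phosphate shuttle, was read at 90.3, 137 and 90.4 CPM in HET and 144, 116 and 132 CPM in WT. Its log2 fold change of -0.31 ± 0.16 had an adjusted p of 0.77. HET mice 1 and 3 were both below every WT mouse and HET mouse 2 was above 2 of the 3 WT mice, and without HET mouse 2 the difference was -0.52 with an adjusted p of 0.11, the lowest of any enzyme under any alternative.

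The enzymes placed the HET mice in much the same way, whereas the order of the WT mice differed between enzymes. WT mouse 3, for example, ranked 6 of 6 (the highest) for *Eno3* and 2 of 6 for *Ldha*. HET mice 1 and 3 were the lowest 2 of the 6 mice for 7 of 10 enzymes, and 1 of them was lowest for all 10. These 2 mice were singled out after the values were seen, and over all genes tested they were the lowest 2 for 9.84%, and for 21.0% of those with a mean of at least 100 CPM. One or the other was lowest for 32.4% of all genes tested, and for 45.0% of those abundant genes. HET mouse 2 was above both of them for all 10, above every WT mouse for 4 (*Aldoa*, *Pgam2*, *Pkm* and *Ldhb*) and below every WT mouse for 1 (*Eno3*). It was above both of them for 38.5% of all genes tested, and for 47.5% of those with a mean of at least 100 CPM. The summed level of the 10 was 9705, 12252 and 9652 CPM in HET and 11705, 10996 and 11968 CPM in WT, so that the HET mice held both the lowest 2 sums and the highest. Because *Aldoa*, *Eno3* and *Pfkm* make up most of this sum, it follows them. The median log2 fold change of the 10 was -0.23 without HET mouse 2, -0.08 without HET mouse 1 and -0.06 without HET mouse 3. These are bulk libraries, in which fewer cells of a type and less RNA per cell cannot be told apart.

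**Figure D3:**
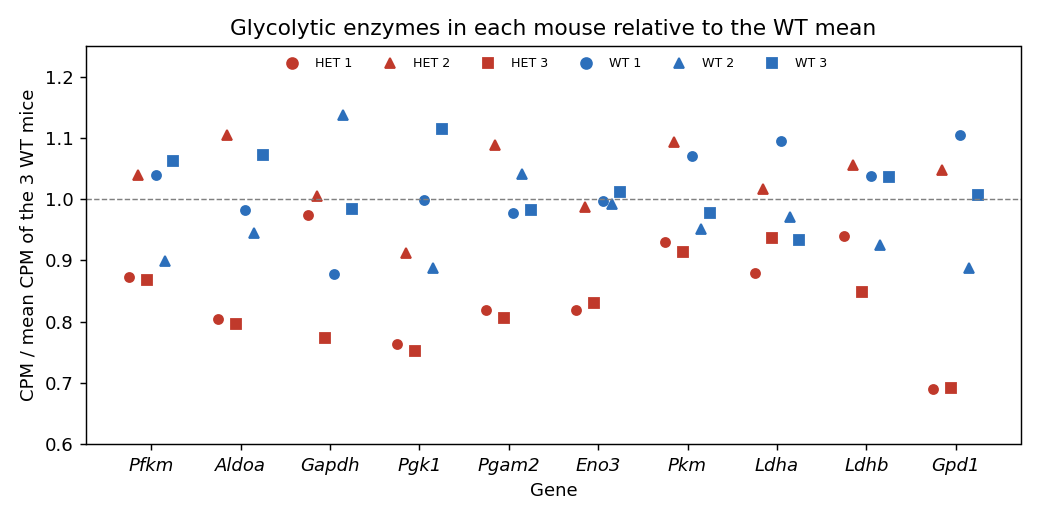
CPM of each enzyme divided by the mean of the 3 WT mice, 1 point per mouse, HET in red and WT in blue with the shape giving the replicate number. The red circle and square (HET mice 1 and 3) are the lowest 2 points for 7 of the 10 enzymes and the red triangle (HET mouse 2) lies above them in all 10.

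Genes of the fastest fibers ordered the HET mice in a similar way. *Myh4*, the IIb myosin, was at 44.7, 2042 and 167 CPM in HET and at 1470, 1774 and 976 CPM in WT, so HET mice 1 and 3 were below every WT mouse and HET mouse 2 was above them all. *Actn3*, the alpha-actinin of fast glycolytic fibers, read 262, 739 and 442 CPM in HET and 877, 673 and 724 CPM in WT. *Pvalb*, the calcium buffer parvalbumin, read 205, 426 and 295 CPM in HET and 684, 552 and 429 CPM in WT, without overlap, at a log2 fold change of -0.85 ± 0.29 and an adjusted p of 0.49.

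Over the list of 13 fast fiber markers, 12 had a value below 0 and 0 passed the test, with a median of -0.18, and 4 did not overlap, all lower (*Pvalb*, *Tnnt3*, *Tnni2* and *Tnnc2*, the last 3 fast troponin subunits), where 6.02% of all genes tested were separated in that direction. Their summed level ran from 49582 to 59339 CPM in HET and from 56279 to 58674 CPM in WT. *Myh1*, the IIx myosin, lay at 4976, 4083 and 5492 CPM in HET and 7031, 4357 and 6658 CPM in WT, and here HET mouse 2 was the lowest of the 6. For *Myh2* the fitted value was +0.14 ± 0.09, and for *Myh7* 0.01 ± 0.08. Of the 12 slow fiber markers 9 lay below 0 (6 on total counts alone), 0 passed the test and the median was -0.07. Among these 12, 1 did not overlap, *Atp2a2*, also lower in HET. The part of the fiber mix in the enzyme values was not tested.

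**Figure D4:**
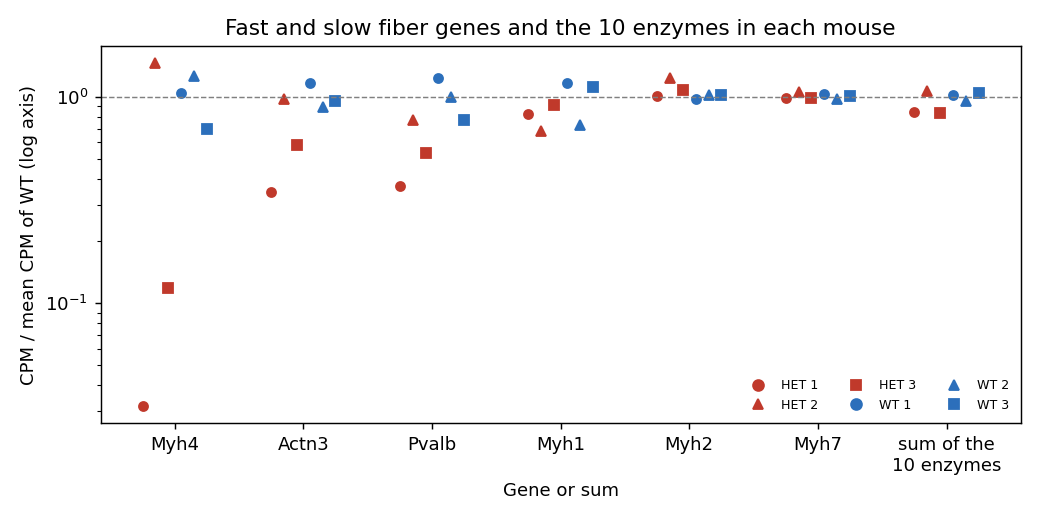
CPM of fast fiber genes (*Myh4*, *Actn3*, *Pvalb*, *Myh1*, *Myh2*), the slow myosin *Myh7* and the sum of the 10 enzymes, each divided by the mean of the 3 WT mice (log axis), 1 point per mouse. For *Myh4* and *Actn3*, as for the sum, HET mice 1 and 3 lie below every other mouse, whereas *Myh7* differs little between mice.

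Other enzymes of glycolysis gave no shared direction. Of 23 listed, 16 could be tested, and 8 lay above 0 and 8 below (12 and 4 on total counts alone). Of the 16, 0 passed the test and 4 had an unadjusted p under 0.05, beside 1140 of the 14696 genes tested. *Hk2*, the hexokinase of muscle, was at 464, 518 and 498 CPM in HET and 513, 509 and 522 CPM in WT. *Gpi1*, phosphoglucose isomerase, had a log2 fold change of -0.04 ± 0.11 (above 0 on total counts alone) and *Tpi1*, triosephosphate isomerase, of -0.14 ± 0.09, both with overlapping genotypes.

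The isoforms that other cells use tended to lie above 0. *Pfkl*, the liver-type phosphofructokinase, was at 13.6, 18.9 and 15.8 CPM in HET and 12.9, 13.2 and 12.2 CPM in WT (0.33 ± 0.13, adjusted p = 0.57 by edgeR). *Pfkp*, the platelet type, was at 15.8, 15.7 and 15.3 CPM in HET and 11.4, 14.8 and 11.3 CPM in WT (0.33 ± 0.13, adjusted p = 0.55 by edgeR). Neither gene showed any overlap between genotypes.

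*Hk1*, the hexokinase of most tissues (0.16 ± 0.10), and *Eno1*, the enolase of most tissues (0.21 ± 0.11), showed the same separation of the mice. With these 4, the non-overlapping genes among the 16 were 4 higher and 2 lower. The background for such a separation was 7.55% of the genes tested upward and 6.02% downward. The 6 isoform partners *Pgam1*, *Eno1*, *Pfkl*, *Pfkp*, *Aldoc* and *Gpd1l* had 5 values above 0, none of which passed the test, and *Gpd1l* stood at -0.07 ± 0.08 (above 0 on total counts alone). *Pgam1* (0.22 ± 0.31) and *Aldoc* (0.48 ± 0.41) were read at under 1 CPM in every mouse.

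Markers of macrophages, fibroblasts and tendon lay on the same side of 0 as these isoforms. All 10 macrophage markers had values above 0, with 5 past the threshold (*C1qa*, *C1qb*, *Csf1r*, *Adgre1* and *Lyz2*) and a summed level of 86.1 to 124 CPM in HET against 49.3 to 55.0 CPM in WT. The 10 fibroblast markers were all above 0 as well, with 1 past the threshold (*Pi16*) and sums of 2014 to 3106 CPM in HET against 985 to 1553 CPM in WT. For the 8 tendon markers 8 values lay above 0 and 0 passed, at 372 to 664 CPM against 120 to 300 CPM. Of the 8 adipocyte markers 7 lay above 0, whereas 6 of 8 endothelial markers (3 of 8 on total counts alone) and 5 of 5 erythrocyte markers lay below it. In these 3 lists 0 genes passed the test and the sums overlapped between genotypes. The part of these cells in the levels of *Pfkl*, *Pfkp*, *Hk1* and *Eno1* was not tested.

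Shares within an isoform family do not depend on scaling between libraries. On reads per kilobase, the partners *Eno1* and *Eno2* made up 0.469%, 0.452% and 0.466% of enolase reads in HET and 0.377%, 0.357% and 0.315% in WT, and *Pfkl* with *Pfkp* 0.516%, 0.539% and 0.565% of phosphofructokinase reads in HET and 0.376%, 0.480% and 0.353% in WT. In both families every HET mouse had the larger share of partners (exact permutation test, two-sided, p = 0.1, the smallest that 3 against 3 mice allow; 0.175 after adjustment over 7 families). *Eno3* itself held a mean of 99.54% of enolase reads in HET and 99.65% in WT. Counting length only in windows free of copies, an alternative chosen after seeing the data, the difference in the *Eno3* share was -0.82 percentage points in place of -0.11, and 72.2% of the windows of *Eno1* have copies. That of *Pfkm* was -0.36 in place of -0.14. On raw reads without length the differences were -0.34 for *Eno3* and -0.40 for *Pfkm*, so the direction held but the size of these shares depends on how length is counted.

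The genotypes were also separated for pyruvate kinase, by a smaller difference and on few reads. *Pklr*, the liver and red cell pyruvate kinase, had 6 reads in all, every one of them in WT mice, so that here the muscle form held the larger share in HET (p = 0.1 by exact permutation). *Pgam2* held 99.9% or more of phosphoglycerate mutase reads per kilobase in every mouse, and the genotypes overlapped. Of the windows of *Pgam1*, 41.5% have copies in other genes, while no window of *Pgam2* recurs. *Gpd1* made up 73.6%, 79.8% and 72.5% of the reads per kilobase of *Gpd1* and *Gpd1l* in HET and 79.7%, 77.7% and 78.4% in WT (p = 0.4 by exact permutation), HET mouse 2 again apart from the other HET mice. *Ldha* made up 35.5% ± 2.03 of lactate dehydrogenase reads per kilobase in HET and 35.5% ± 2.04 in WT (SD, n = 3 each; p = 1 by exact permutation). Without dividing by length, *Ldha* had more reads than *Ldhb*, 153132 against 133091 over all mice.

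**Figure D5:**
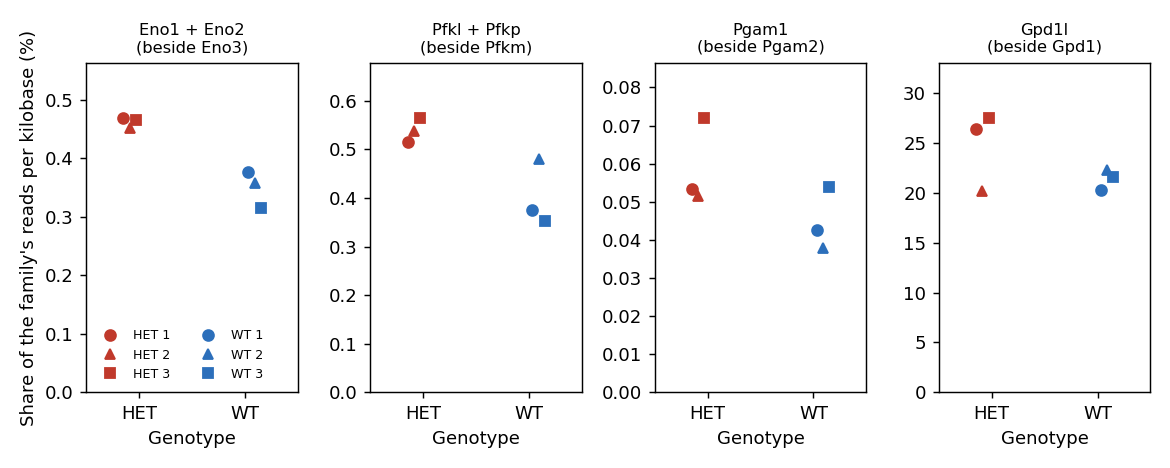
Share of the family's reads per kilobase held by the partners of a muscle enzyme, 1 point per mouse, with each axis starting at 0, for 4 of the 7 families. *Eno1* with *Eno2* and *Pfkl* with *Pfkp* separate the genotypes (0.452% to 0.469% against 0.315% to 0.377%, and 0.516% to 0.565% against 0.353% to 0.480%), while *Pgam1* and *Gpd1l* overlap.

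How closely a partner resembles the muscle form matters for such shares, since reads that fit both would be lost. The most alike coding windows of 50 bases differ at 4 bases between *Eno3* (chr11:70660663-70660712, plus strand) and *Eno1* (chr4:150245118-150245167, plus strand), and at 5 bases between *Pgam2* (chr11:5801728-5801777, minus strand) and *Pgam1* (chr19:41917668-41917717, plus strand), in GRCm38. They are shown with the differing bases in capitals. For *Pfkm* the closest windows of *Pfkl* and *Pfkp* differ at 5 bases each and for *Ldha* and *Ldhb* at 6.
Eno3: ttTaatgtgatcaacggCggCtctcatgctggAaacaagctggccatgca
Eno1: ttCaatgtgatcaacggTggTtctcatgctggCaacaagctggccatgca
Pgam2: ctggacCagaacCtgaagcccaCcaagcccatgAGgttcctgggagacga
Pgam1: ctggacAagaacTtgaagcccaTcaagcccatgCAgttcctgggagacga

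Genes of the routes onward from glycolysis included several whose genotypes did not overlap. *Gpd2*, the mitochondrial partner of *Gpd1* in the glycerol phosphate shuttle, was at 29.1, 33.6 and 36.1 CPM in HET and 43.4, 42.3 and 40.2 CPM in WT, without overlap, at a log2 fold change of -0.35 ± 0.10 and an adjusted p of 0.29, the lowest of the 16 enzymes. *Bpgm*, which makes 2,3-bisphosphoglycerate from a glycolytic intermediate, was at 38.1, 41.2 and 31.7 CPM in HET and 43.7, 47.4 and 41.7 CPM in WT, also without overlap (-0.26 ± 0.11). Neither passed the test.

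*Mpc1*, a subunit of the mitochondrial pyruvate carrier, was at 7.35, 5.78 and 6.20 CPM in HET and 8.16, 8.80 and 9.30 CPM in WT (-0.44 ± 0.14, adjusted p = 0.36 by edgeR). *Pdha1* (-0.12 ± 0.08) and *Pdhb* (-0.13 ± 0.08), subunits of the first enzyme of pyruvate dehydrogenase, were also separated. Of the 14 genes of pyruvate entry 12 lay below 0 (8 on total counts alone) and 0 passed the test, and 3 did not overlap, all lower, beside the 6.02% of all genes tested. *Pdk4*, the kinase that turns pyruvate dehydrogenase off, spread widely within both genotypes, from 682 to 3661 CPM in HET and 727 to 2216 CPM in WT, with HET mouse 2 highest.

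Of 11 genes of glycolytic control and gluconeogenesis, 10 could be tested, 7 lay below 0 (5 on total counts alone) and 0 passed. *Tigar*, a phosphatase that lowers fructose 2,6-bisphosphate, was the only 1 without overlap (-0.17 ± 0.09). That 1 of 10 is near the 6.02% of all genes tested that were separated in that direction. The malate-aspartate shuttle, the other route for cytosolic NADH, had 0 of 7 past the test with a median log2 fold change of -0.001 (0.07 on total counts alone).

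The tested genes outside these lists whose log2 CPM followed the enzymes most closely over the 6 mice were *Ak1* (Pearson r = 0.99), *Trpt1* (0.99), *Ivd* (0.99), ENSMUSG00000051107 (0.98) and *Dolk* (0.98). *Ak1*, the adenylate kinase of muscle cytosol, was at 908, 1067 and 874 CPM in HET and at 1047, 1005 and 1018 CPM in WT. These 5 were chosen for their likeness among all tested genes over 6 points, so the r values are a description.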

How the data were processed

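RNA-seq of soleus from 3 HET and 3 WT mice was used as deposited. The authors aligned poly-A libraries with STAR 2.7.3a to GRCm38.p6 and deposited raw counts per gene from featureCounts 2.0.3 (submitters' processing notes; per the file headers reverse-stranded, without multi-mapping reads or reads on several genes). The authors' normalized signal, also deposited, was found to equal raw counts scaled by a DESeq2 size factor for each mouse (0.773 to 1.42). Another deposited file, the authors' DESeq2 comparison with fold changes and p-values, was not used. All columns matched a mouse (0 unmatched).

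Raw counts were tested in R 4.3.3 with edgeR 4.0.16 (filterByExpr with a minimum count of 10, TMM, robust quasi-likelihood test, two-sided, genotype only, Benjamini-Hochberg over 14696 genes, threshold 0.05). CPM used TMM library sizes. The biological coefficient of variation was 0.143. The fit was tested on simulated data. DESeq2 1.42.0, limma 3.58.1, other scalings and filters, a GC offset (GC content known for 14672 genes), a replicate block and leaving out each mouse were alternatives. Likeness used log2(CPM + 1). Isoform shares used reads per kilobase of exon and exact permutation tests in SciPy 1.17.1. Shared windows and coordinates came from GENCODE M21 transcripts (GRCm38), which name 51719 of 51912 genes, and promoters from RefSeq.

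The text names all 10 enzymes, their isoform partners, hexokinases and isomerases, other pathway genes that were called or did not overlap, main fiber type genes and the 5 genes most like the enzymes. The enzymes and lists were chosen with earlier results of these data known. A gene list, an isoform share and a sequence window are not reported here.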

Additional observations from a re-analysis of the deposited data

How the results depend on the processing

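Under all 16 alternatives 0 of the 10 enzymes passed the adjusted threshold, and their median log2 fold change stayed below 0 (from -0.23 to -0.06). Of 160 single values, 155 lay below 0. The exceptions were *Pkm* on total counts (0.0445) and, with 1 mouse left out, *Pkm* (-0.10 to 0.0206) and *Ldhb* (-0.15 to 0.0001). The difference in the *Ldha* share ranged from -1.20 to 0.72 percentage points with 1 mouse left out, and the other 6 shares kept their direction. The count of genes called over all genes was 22. It was 404 with no filter on low counts, 210 with DESeq2, 13 with limma-voom, 7 with a GC offset, and 0 to 83 with 1 mouse left out (0 without HET mouse 1 or 3 or WT mouse 1 or 2, and 83 without WT mouse 3). With a replicate block it was 116, and 96 with the block and the GC offset, while 0 enzymes were called in either. Same-numbered mice correlated at 0.20, -0.01 and -0.03, and the other pairs between -0.14 and 0.13. These are deviations from the mean of only 3 mice, so they cannot decide whether the numbers pair the mice. The block left each share difference as it was, with p from a sign-flip test that cannot go below 0.25. Causes of these changes were not tested. Lengths counted in windows unique in the genome were not run, for want of a genome sequence here. With 3 mice a genotype, small differences are within the spread between mice. *Gapdh* rests on few reads, and most windows of both *Gapdh* and *Pgk1* have copies in other genes.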
